A study of Homo sapiens with 8 samples.

Results

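The genes described here are LIN28A, LIN28B, TRIM71, HMGA1, HMGA2, IGF2BP1, IGF2BP2 and IGF2BP3, a set of 8 genes that embryos and many tumours express at high levels. They were taken by symbol, and each had at least 1 probe set annotated to that symbol alone, so that 8 of 19775 genes on the array were followed with 23 probe sets between them. RNA came from the established human embryonic stem cell line H9, kept on inactivated mouse embryonic fibroblasts. At day 0 the cells were undifferentiated and unsorted. After 4, 6 and 8 days of differentiation toward blood in StemPro34 serum-free medium with BMP-4, the cells carrying both KDR and CD31 were taken by flow sorting. KDR is a receptor for vascular endothelial growth factor and CD31 is the endothelial adhesion molecule encoded by PECAM1. Each of the 4 groups had 2 arrays from samples labelled as biological replicates, 8 arrays in all, and day 0 differs from every later group in both day and sort, which cannot be told apart. The labels do not say whether replicates came from separate cultures, so the p-values measure only how these arrays vary, and precision is limited by having 2 per group.

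LIN28A and LIN28B are RNA-binding proteins with a cold shock domain and a pair of zinc knuckles, and they block maturation of the let-7 microRNAs. In turn, let-7 represses mRNAs that carry its sites, among them LIN28A, LIN28B, HMGA2, IGF2BP1, IGF2BP3 and TRIM71 itself, which makes the genes part of 1 regulatory loop of early development. In fetal blood formation, LIN28B with HMGA2 and IGF2BP family members is known for keeping progenitors in a fetal state. The let-7 RNAs were not measured on the arrays used here, so the results below concern mRNAs on the protein-coding side of the loop.

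The values are array intensities written as log2(intensity + 32), and a change is a difference between group means on that scale with its SE. A change was called at an adjusted p under 0.05 from limma, an error model fitted over all 8 arrays and 13647 genes, with Benjamini-Hochberg adjustment. Each gene is represented by its brightest probe set, and probe sets of different genes bind their targets unequally, so levels are compared between arrays and not between genes. All 8 genes lay above the array median on all 8 arrays.

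The labelled cell types were checked on marker genes. Of 17 endothelial markers, 16 were called higher at day 4 than at day 0. Among them were KDR and PECAM1, the genes of the sort, whose rise was fixed by the sort and is no check. On the day 0 arrays, 8 and 6 of the 17 lay above the array median, against all 17 on each sorted array. Most of the 17 thus entered the test through the sorted arrays. Of 15 tested markers of undifferentiated cells, 13 were called lower. All 15 lay above the array median on both day 0 arrays, against 7 to 11 on the sorted arrays. Part of the 15 thus entered the test through the day 0 arrays. Of all genes, 8.52% were called higher and 9.91% lower at day 4. Median intensity ranged from 88.7 to 93.2 over the arrays. The GAPDH 3' to 5' signal ratio, a sign of RNA integrity, differed by group, with 1.71 to 1.91 at day 0, 2.15 to 2.22 at day 4, 3.41 to 3.73 at day 6 and 2.41 to 3.08 at day 8. That of ACTB ran from 8.92 to 10.4, 9.18 to 19.0, 16.0 to 31.0 and 9.91 to 15.1 in the same order of days. The part of these ratios in the results below was not tested. The first replicates of day 4 and of day 6 differed from the remaining 4 sorted arrays in marker levels. Stromal and smooth muscle markers summed to 27656 and 22968 intensity units on them against at most 16341 on the rest, and endoderm and plasma protein markers to 4034 and 1207 against at least 8345. Markers of dividing cells summed to 67640 and 61746 on them against at most 41389. Endothelial markers, the kind the sort selects, summed to 66759 and 57614 on them against at least 81222 on the rest. In bulk RNA, fewer cells that express a gene and less RNA per cell cannot be told apart.

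From day 0 to the sorted cells, LIN28A, TRIM71 and IGF2BP3 fell at every day, to between 24.01% and 57.0% of their day 0 intensity. LIN28B and HMGA2 fell by less, LIN28B past the test only at day 8 and HMGA2 only at day 6. One IGF2BP1 probe set rose at day 6 and day 8, and HMGA1 and IGF2BP2 did not pass the test at any day. In counts, 3 of the 8 genes were called lower and 0 higher at day 4, where 9.91% of all 13647 genes were called lower and 8.52% higher. For day 6 it was 4 lower and 1 higher (13.6% and 9.73% of all genes), and for day 8 again 4 lower and 1 higher (14.1% and 10.4%). Arrays did not overlap with those of day 0 for 7, 8 and 6 of the 8 genes, against 66.1%, 65.7% and 77.8% of all genes. Without the first replicates of day 4 and day 6, 5 genes were called at each day, as LIN28B (adjusted p = 0.0386) and HMGA1 (adjusted p = 0.0178) joined at day 4, and at day 6 LIN28B (adjusted p = 0.0226) took the place of HMGA2 (adjusted p = 0.0825). Calls over all 13647 genes rose too, from 2516, 3187 and 3345 to 4764, 6096 and 6781. The median change of the 8 genes was -0.60, -0.65 and -0.51 at the 3 days, and that of all genes 0.02, -0.03 and -0.03. The 3 comparisons share the day 0 arrays, so they do not support each other independently.

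**Figure D1:**
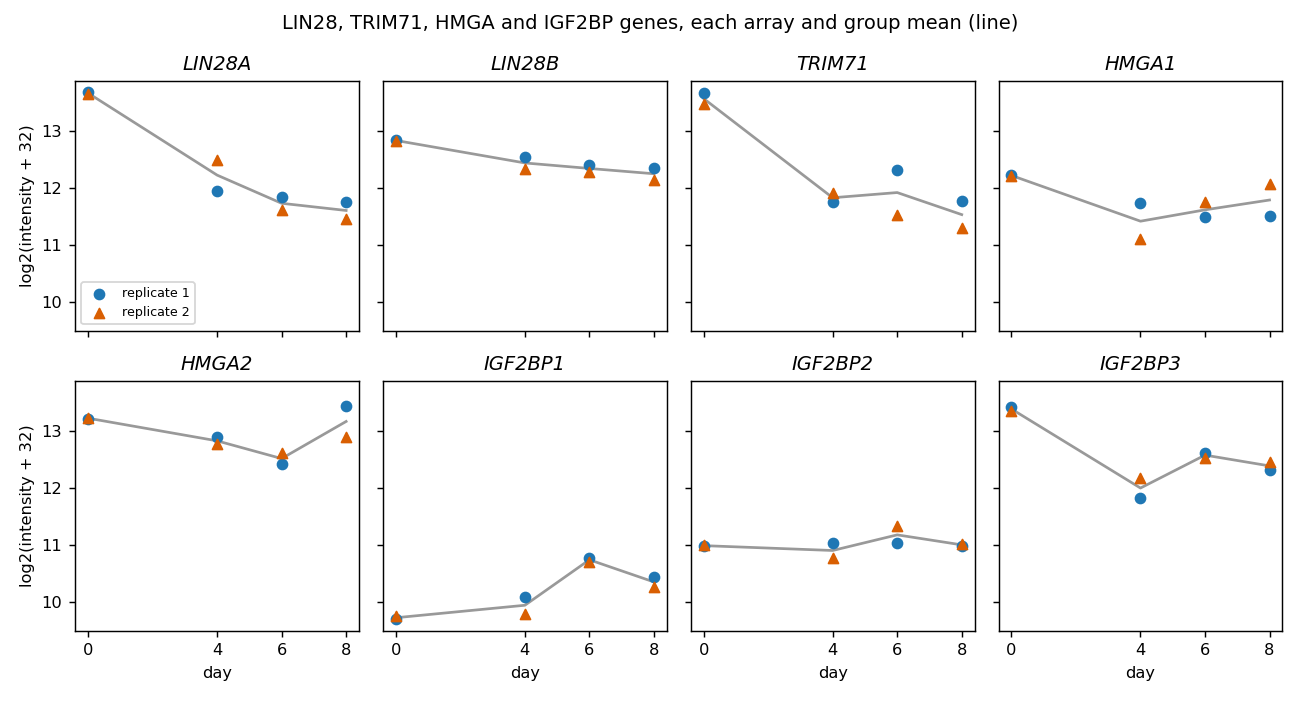
Level of each of the 8 genes, log2(intensity + 32), against the day of differentiation, with 1 point per array (circle: replicate 1, triangle: replicate 2) and a line through the group means. LIN28A, TRIM71 and IGF2BP3 lie lower on all 6 sorted arrays than on the day 0 arrays, IGF2BP1 lies higher, and IGF2BP2 stays between 10.79 and 11.33 throughout.

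LIN28A, the form best known from undifferentiated embryonic stem cells, read 13.68 and 13.65 on the day 0 arrays. It read 11.96 and 12.50 on those of day 4, 11.85 and 11.62 on those of day 6, and 11.76 and 11.45 on those of day 8. All 6 sorted arrays were below both day 0 arrays, and the day 4 arrays lay above those of day 6 and of day 8. The fall from day 0 was -1.44 ± 0.22 at day 4 (adjusted p = 0.00534), -1.93 ± 0.22 at day 6 (adjusted p = 0.00131) and -2.06 ± 0.22 at day 8 (adjusted p = 0.001). In intensity, 37.5%, 26.2% and 24.01% of the day 0 mean was left. The order of its levels was day 0, day 4, day 6, day 8, in which day 6 and day 8 overlapped. From day 4 to day 8 it changed by -0.62 ± 0.22, which did not pass the adjustment (unadjusted p = 0.0275, adjusted p = 0.724). The day 4 call was lost without either day 0 array, with adjusted p of 0.0546 and 0.0529 and changes of -1.42 and -1.45.

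LIN28B, its paralog and a regulator of fetal blood progenitors, moved far less. It read 12.84 and 12.83 on the day 0 arrays, 12.54 and 12.34 on those of day 4, 12.41 and 12.28 on those of day 6, and 12.35 and 12.15 on those of day 8. Every sorted array was below both day 0 arrays, but the sorted groups overlapped each other. The change was -0.39 ± 0.15 at day 4 (adjusted p = 0.129), -0.49 ± 0.15 at day 6 (adjusted p = 0.0597) and -0.58 ± 0.15 at day 8 (adjusted p = 0.0332). At day 8 it kept 66.8% of its day 0 intensity. The day 8 call was lost when any 1 array of day 0 or day 8 was left out, with adjusted p from 0.0711 to 0.203. With quantile normalization LIN28B was called at day 4 and day 6 as well (adjusted p of 0.0404 and 0.0319).

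The paralogs can be set against each other within each array, as the change of LIN28A minus the change of LIN28B, both counted from their day 0 means. This difference was -1.41 and -0.67 on the day 4 arrays, -1.38 and -1.49 on those of day 6, and -1.42 and -1.53 on those of day 8. LIN28A had thus dropped further than LIN28B on 6 of 6 sorted arrays, least on replicate 2 of day 4. An exact two-sided permutation test of 6 sorted against 2 day 0 arrays gave p = 0.0714, the smallest that this design allows, and 0.0893 after adjustment over 5 pairs of paralogs. The pairs were chosen after the values were seen, so this p is no independent support.

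The let-7 family is shown because it ties these genes together. The mature forms are given from RefSeq (GRCh38.p14), 5' to 3', with the seed, bases 2 to 8, in capitals.
hsa-let-7a-5p: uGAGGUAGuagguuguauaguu
hsa-let-7b-5p: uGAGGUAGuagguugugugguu
hsa-let-7e-5p: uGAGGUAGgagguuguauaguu
hsa-let-7g-5p: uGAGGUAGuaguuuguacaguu
hsa-miR-98-5p: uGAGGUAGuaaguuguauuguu
The seed of all 9 human forms in the table is the same 7 bases, GAGGUAG, and the forms differ in the bases after it.

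LIN28 proteins are known to grip the let-7 precursor at a GGAG run in the loop between its arms. With LIN28A, the uridylyl transferases TUT4 and TUT7 then tag it for decay. In RefSeq, 8 of 11 let-7 hairpins with both arms listed held GGAG between the arms on the RNA strand, against 60 of 739 human hairpins of all families (8.12%). Of the examples below, MIRLET7A1 (chr9:94175957-94176036, plus strand) and MIRLET7G (chr3:52268278-52268361, minus strand) hold it, in capitals. MIRLET7B (chr22:46113686-46113768, plus strand) does not hold those letters there.
MIRLET7A1: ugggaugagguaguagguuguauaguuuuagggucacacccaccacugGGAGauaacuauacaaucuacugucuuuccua
MIRLET7G: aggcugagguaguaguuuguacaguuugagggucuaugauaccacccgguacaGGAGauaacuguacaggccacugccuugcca
MIRLET7B: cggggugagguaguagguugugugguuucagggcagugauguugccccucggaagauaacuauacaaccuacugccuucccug
A match is a description of the letters and not a measured binding site.

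TRIM71, also known as LIN41, is an RNA-binding ubiquitin ligase that silences mRNAs in stem cells and is a classic let-7 target. It read 13.67 and 13.46 on the day 0 arrays, 11.75 and 11.91 on those of day 4, 12.32 and 11.53 on those of day 6, and 11.77 and 11.30 on those of day 8. All sorted arrays were below the day 0 arrays, and the 3 sorted groups overlapped each other. The fall was -1.74 ± 0.29 at day 4 (adjusted p = 0.00731), -1.65 ± 0.29 at day 6 (adjusted p = 0.00795) and -2.03 ± 0.29 at day 8 (adjusted p = 0.00335), which left 29.8%, 32.9% and 24.5% of the day 0 intensity. The day 6 arrays lay 0.79 apart, where the median gap over all genes was 0.32. Without replicate 1 of day 0 the call was lost at day 4 (adjusted p = 0.0703) and day 6 (adjusted p = 0.0745), and without replicate 2 at day 6 (adjusted p = 0.0512). Of all pairs among the 8 genes, LIN28A and TRIM71 had the smallest root mean square difference between profiles. It was 0.27 over 8 arrays after each profile was centred on its mean. LIN28B was almost as close to IGF2BP2 (0.29), a gene called at no day, and to HMGA2 (0.30).

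HMGA1 and HMGA2 are small proteins with AT-hook motifs that bind the minor groove of DNA and alter chromatin, and HMGA2 is one of the best known let-7 targets. HMGA1 read 12.23 and 12.21 on the day 0 arrays, 11.74 and 11.11 on those of day 4, 11.49 and 11.75 on those of day 6, and 11.52 and 12.06 on those of day 8. All sorted arrays were below the day 0 arrays, and the sorted groups overlapped each other. The change was -0.80 ± 0.27 at day 4 (adjusted p = 0.0934, 95% interval from -1.45 to -0.15), -0.60 ± 0.27 at day 6 (adjusted p = 0.167) and -0.43 ± 0.27 at day 8 (adjusted p = 0.294). The day 4 arrays lay 0.63 apart and those of day 8 0.54 apart. Without replicate 1 of day 4 the day 4 change passed the test at -1.12 (adjusted p = 0.0471). A second HMGA1 probe set, 210457_x_at, whose suffix marks probes that may bind other transcripts, stayed between 6.80 and 7.01 on all arrays, with changes of -0.03, -0.11 and -0.05. It lay above the array median on 2 of 8 arrays.

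HMGA2 read 13.22 and 13.23 on the day 0 arrays, 12.89 and 12.76 on those of day 4, 12.42 and 12.61 on those of day 6, and 13.44 and 12.89 on those of day 8. The day 4 and day 6 arrays were below those of day 0, and the day 8 arrays lay on either side of them. The change was -0.40 ± 0.20 at day 4 (adjusted p = 0.23), -0.71 ± 0.20 at day 6 (adjusted p = 0.0435) and -0.06 ± 0.20 at day 8 (adjusted p = 0.869, 95% interval from -0.53 to 0.41). Intensity was thus at 61.3% of day 0 on day 6 and at 97.8% on day 8. The step from day 6 to day 8 was 0.65 ± 0.20 with no overlap of arrays, but it did not pass the adjustment (unadjusted p = 0.014, adjusted p = 0.955). The day 6 call was lost without either array of day 0, day 4 or day 6, with adjusted p from 0.0548 to 0.209, and with no filter on low genes (adjusted p = 0.0557). Of the 9 HMGA2 probe sets, 6 lay below the filter, from 5.41 to 6.43. The 2 dim ones that passed, 1567224_at and 1559891_at, had changes of -0.68 and -0.26 at day 6 and of -0.07 and -0.06 at day 8, none of them called.

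The IGF2BP proteins bind mRNAs such as IGF2, MYC and CD44 and protect or localise them. IGF2BP3 read 13.43 and 13.35 on the day 0 arrays, 11.83 and 12.17 on those of day 4, 12.62 and 12.54 on those of day 6, and 12.32 and 12.46 on those of day 8. Its level was highest at day 0 and lowest at day 4, and day 6 and day 8 lay between them, with no overlap between any of the 4 groups. The fall was -1.38 ± 0.16 at day 4 (adjusted p = 0.0016), -0.81 ± 0.16 at day 6 (adjusted p = 0.0129) and -0.996 ± 0.16 at day 8 (adjusted p = 0.00552). The day 4 call held under all 21 alternatives, while those at day 6 and day 8 were lost without either day 0 array, with adjusted p from 0.0539 to 0.125. The step up from day 4 to day 6 was 0.58 ± 0.16 (unadjusted p = 0.00936, adjusted p = 0.843). A second bright probe set, 203820_s_at, fell by 0.99, 0.89 and 1.12 at the 3 days and was called at each, but its day 4 to day 6 difference was 0.10 ± 0.17. From day 4 to day 8 it read -0.14 ± 0.17 with overlapping arrays, where the first probe set read 0.39 ± 0.16. The lowest group mean of 203820_s_at was at day 8 (12.14) and not at day 4 (12.28). Another, 216493_s_at, was lower by 1.33 at day 4 and 1.17 at day 8, both called, and read -0.52 at day 6, not called. The fourth, 1569033_at, had changes of -0.55, -0.62 and -0.31, none called.

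IGF2BP1 has 3 probe sets, of which 2 passed the filter and went apart. The third, 241574_s_at, stayed below the filter at 6.30 to 6.90. The brighter, 227377_at, read 9.70 and 9.76 on the day 0 arrays, 10.10 and 9.80 on those of day 4, 10.78 and 10.71 on those of day 6, and 10.45 and 10.27 on those of day 8. All sorted arrays were above the day 0 arrays, highest at day 6. Its group means rose in the order day 0, day 4, day 8, day 6, which is also the order of the GAPDH ratio. The ACTB ratio gave no such order, as its ranges at day 0, day 4 and day 8 overlapped. The part of either ratio was not tested. The change of 227377_at was 0.22 ± 0.18 at day 4 (adjusted p = 0.478), 1.01 ± 0.18 at day 6 (adjusted p = 0.0087) and 0.63 ± 0.18 at day 8 (adjusted p = 0.0477). Its intensity at day 6 was thus 206% of that at day 0. The other, 223689_at, read 8.63 and 8.74 on the day 0 arrays, 8.65 and 8.52 on those of day 4, 8.52 and 8.43 on those of day 6, and 8.25 and 8.45 on those of day 8. Its changes were -0.10, -0.21 ± 0.16 (adjusted p = 0.41 over probe sets) and -0.34 ± 0.16 (adjusted p = 0.177). With the mean of all 3 probe sets the gene was not called, at 0.36 for day 6 (adjusted p = 0.107) and 0.08 for day 8 (adjusted p = 0.699). The positions of the probe sets on the transcripts were not analysed here. The day 6 call was also lost without either day 0 array (adjusted p of 0.0935 and 0.0796), and the day 8 call without any 1 array of day 0 or day 8, with no filter (0.0637) and with median centring (0.0645).

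**Figure D2:**
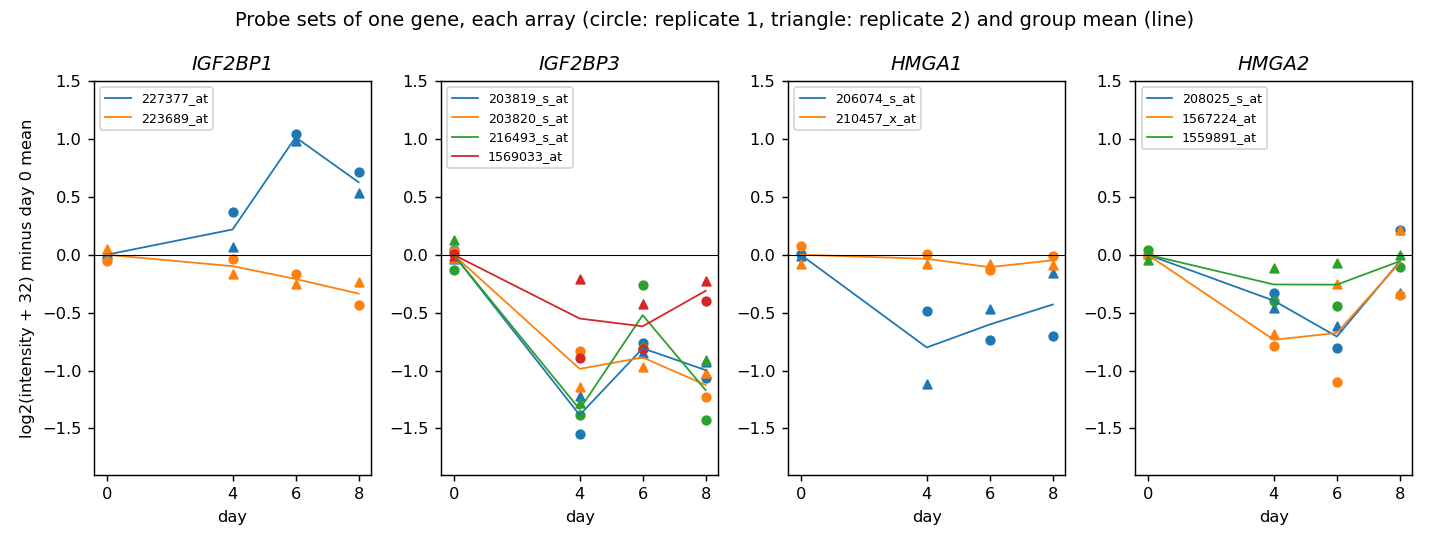
Each tested probe set of IGF2BP1, IGF2BP3, HMGA1 and HMGA2, as log2(intensity + 32) minus its own day 0 mean, against the day, with 1 point per array and a line through group means. The IGF2BP1 probe sets diverge, at 1.01 and -0.21 on day 6, while the 4 IGF2BP3 probe sets all lie below 0 on every sorted array.

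IGF2BP2, the family member that many adult tissues express, was called at none of the days. It read 10.99 and 10.999 on the day 0 arrays, 11.03 and 10.79 on those of day 4, 11.03 and 11.33 on those of day 6, and 10.98 and 11.03 on those of day 8. The changes were -0.09 ± 0.18, 0.19 ± 0.18 and 0.01 ± 0.18 (adjusted p of 0.798, 0.514 and 0.97). The 95% interval at day 8 ran from -0.42 to 0.45, so a change of that size was not detectable here.

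Within single arrays, IGF2BP1 and IGF2BP2 both ended above IGF2BP3 relative to day 0. The change of IGF2BP1 minus that of IGF2BP3 ranged from 1.28 to 1.92 over the 6 sorted arrays, and that of IGF2BP2 minus IGF2BP3 from 0.81 to 1.59. With the other tested IGF2BP1 probe set, IGF2BP1 minus IGF2BP3 ran from 0.60 to 1.52. IGF2BP1 minus IGF2BP2 ranged from 0.27 to 1.01 with the brighter probe set, but from -0.59 to 0.04 with the other, above 0 on 1 of 6 sorted arrays, so the order of these paralogs turns with the probe set. For each of these pairs the exact permutation p was 0.0714, the smallest possible, with the brighter probe set, and 0.0893 after adjustment over 5 pairs. As the pairs were chosen with their values seen, this p is no independent support. HMGA1 minus HMGA2 ran from -0.92 to 0.17 on the sorted arrays, with an exact permutation p of 0.786.

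**Figure D3:**
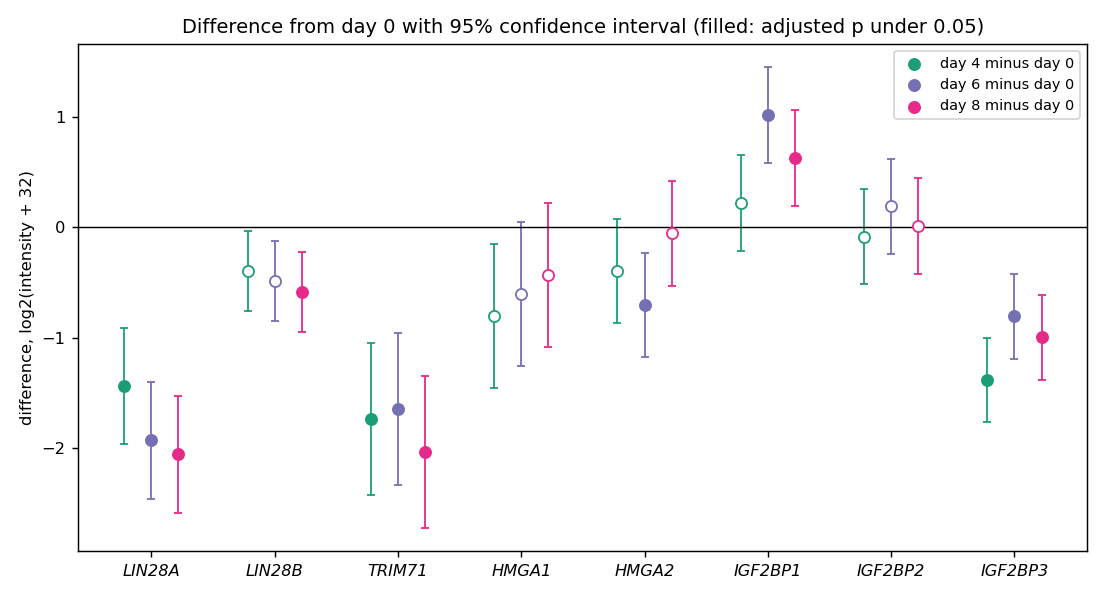
Difference of each gene from day 0 at day 4, day 6 and day 8, on the log2(intensity + 32) scale, with 95% confidence intervals from the limma fit and filled points where the adjusted p was under 0.05. LIN28A, TRIM71 and IGF2BP3 are filled at each day, LIN28B at day 8, HMGA2 at day 6, and IGF2BP1 at day 6 and day 8 on the other side of 0.

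Over all probe sets, 15 of 23 passed the filter and were tested among 24898. For day 4, 5 were called lower and 0 higher, where 8.79% and 7.05% of all probe sets were. For day 6, 5 were called lower and 1 higher (11.7% and 8.41%), and for day 8, 6 lower and 0 higher (12.1% and 8.86%). The brighter IGF2BP1 probe set thus missed the threshold at day 8 in this fit (adjusted p = 0.0577).

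Among the sorted groups, 0 of the 8 genes were called by limma in any of the 3 comparisons, as were 0% of all genes. At an unadjusted p under 0.05, IGF2BP1 and IGF2BP3 differed between day 4 and day 6, HMGA2 between day 6 and day 8, and LIN28A and IGF2BP3 between day 4 and day 8. Over all genes, 5.29%, 2.48% and 6.5% passed that unadjusted threshold. Other probe sets of the same genes did not pass it. The second bright IGF2BP3 probe set, 203820_s_at, read 0.10 between day 4 and day 6 (unadjusted p = 0.57) and -0.14 between day 4 and day 8 (unadjusted p = 0.429). For IGF2BP1, 223689_at read -0.11 between day 4 and day 6 (unadjusted p = 0.501). Arrays of the groups did not overlap for 5, 4 and 4 of the 8 genes, against 24.4%, 25.5% and 38% of all genes.

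Promoters are shown for TRIM71 and IGF2BP3, both called lower at each day, as 250 bases before the start of the gene in RefSeq (GRCh38.p14). Of the 8 genes, 5 were matched in that table by symbol, and LIN28A, also called lower at each day, was not among them. Both strands were searched for the E-box CACGTG, bound by MYC family factors among others, and for the octamer ATGCAAAT, bound by POU factors, motifs chosen after the sequences were seen. The TRIM71 promoter (chr3:32817747-32817996, plus strand) held neither. That of IGF2BP3 (chr7:23470492-23470741, minus strand) held 2 E-boxes, in capitals, at -174 and -146 from the start, where 6.34% of 35116 promoters of the same length hold at least 1. Among all 8 promoters of the 5 matched genes, the only other matches were an octamer at -72 in 1 of HMGA1, a motif in 1.63% of promoters, and an E-box at -47 in 1 of LIN28B.
TRIM71: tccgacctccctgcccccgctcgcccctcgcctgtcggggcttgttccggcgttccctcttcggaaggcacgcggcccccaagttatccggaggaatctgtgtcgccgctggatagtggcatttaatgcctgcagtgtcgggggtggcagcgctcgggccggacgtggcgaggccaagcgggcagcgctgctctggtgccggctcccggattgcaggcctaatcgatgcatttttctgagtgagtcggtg
IGF2BP3: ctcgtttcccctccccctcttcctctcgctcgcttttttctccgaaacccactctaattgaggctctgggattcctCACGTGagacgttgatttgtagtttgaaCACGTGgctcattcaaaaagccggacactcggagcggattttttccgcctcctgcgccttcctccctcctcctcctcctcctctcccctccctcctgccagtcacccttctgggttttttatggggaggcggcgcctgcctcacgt
No match says only that these letters are not in this window.

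Other genes of the let-7 pathway were taken as lists, whose counts stand beside the shares of all genes given above (9.91% lower and 8.52% higher at day 4). Of 20 tested genes for microRNA processing and let-7 uridylation, 1 was called higher and 3 lower at day 4, then 1 and 4 by day 6 and 1 and 2 by day 8, with medians of -0.29, -0.29 and -0.30. At day 4, TNRC6A and AGO2, parts of the silencing complex, were lower by 1.47 ± 0.21 (adjusted p = 0.00387) and 1.07 ± 0.24 (adjusted p = 0.0231), and AGO4 was higher by 0.86 ± 0.21 (adjusted p = 0.0305). DDX5, a helicase of the nuclear processing complex, was lower by 0.66 ± 0.17 (adjusted p = 0.0362). TUT4 and TUT7, the LIN28A partners, had changes of -0.36 and 0.08 at day 4 (adjusted p of 0.474 and 0.789). DIS3L2, which degrades the uridylated precursor, had a change of -0.04 ± 0.46, and DICER1, which cuts precursors, read 10.47 and 12.00 on the day 4 arrays.

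Of 23 tested mRNAs known as let-7 targets outside the 8 genes, 1 was called at each day, with medians of -0.09, -0.01 and -0.03. MYCN, a growth-promoting transcription factor, was lower at day 4 by 0.90 ± 0.24 (adjusted p = 0.0449) and at day 6 by 0.99 ± 0.24 (adjusted p = 0.0281). IGDCC3, an immunoglobulin-domain membrane protein, was the gene called at day 8, named after its value was seen. It was higher by 1.68 ± 0.29 (adjusted p = 0.00759). Of 4 tested host transcripts of let-7 genes, MIR99AHG, which holds let-7c, was called higher at each day (adjusted p of 0.0205, 0.00737 and 0.0169). It read 5.77 on both day 0 arrays, below the array median, and from 7.28 to 8.52 on the sorted ones, through which alone it passed the filter, so the size of its change is not given. A host transcript is not the mature microRNA, which was not measured.

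Partners and relatives of the other members were counted in the same way. Of 8 tested mRNAs known to bind IGF2BP proteins, CD44, an adhesion receptor, was lower at each day, by 0.97 ± 0.20 at day 4 (adjusted p = 0.0154), 0.82 at day 6 and 0.66 at day 8. HMGA2 is in that list too, and PPP1R9B, a scaffold protein, was called higher at day 6 (0.64, adjusted p = 0.0408). MYC read 9.69 and 9.68 at day 0 and from 8.74 to 9.63 on the sorted arrays, not called. Of 10 tested TRIM71 relatives and targets, CDKN1A, the cell cycle inhibitor that TRIM71 is known to silence, was called lower at day 4 (-0.97 ± 0.27, adjusted p = 0.0497) and day 6 (-1.50 ± 0.27, adjusted p = 0.00858), and at day 8 it read -0.91 (adjusted p = 0.0502). TRIM32, a ubiquitin ligase related to TRIM71, was lower at day 6 (-0.62, adjusted p = 0.04). Of 10 tested HMG box and nucleosome-binding HMG genes, HMGB3 and HMGN4 were lower at day 4, by 1.07 ± 0.22 (adjusted p = 0.0156) and 0.98 ± 0.25 (adjusted p = 0.0393). HMGN5, which binds nucleosomes, joined them at day 6 (-1.26) and day 8 (-1.50). Of 5 cold shock domain relatives of LIN28, YBX1, a general mRNA-binding protein, was the one called, lower at day 6 by 0.55 ± 0.13 (adjusted p = 0.0241) and at day 8 by 0.56 ± 0.13 (adjusted p = 0.0222).

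**Figure D4:**
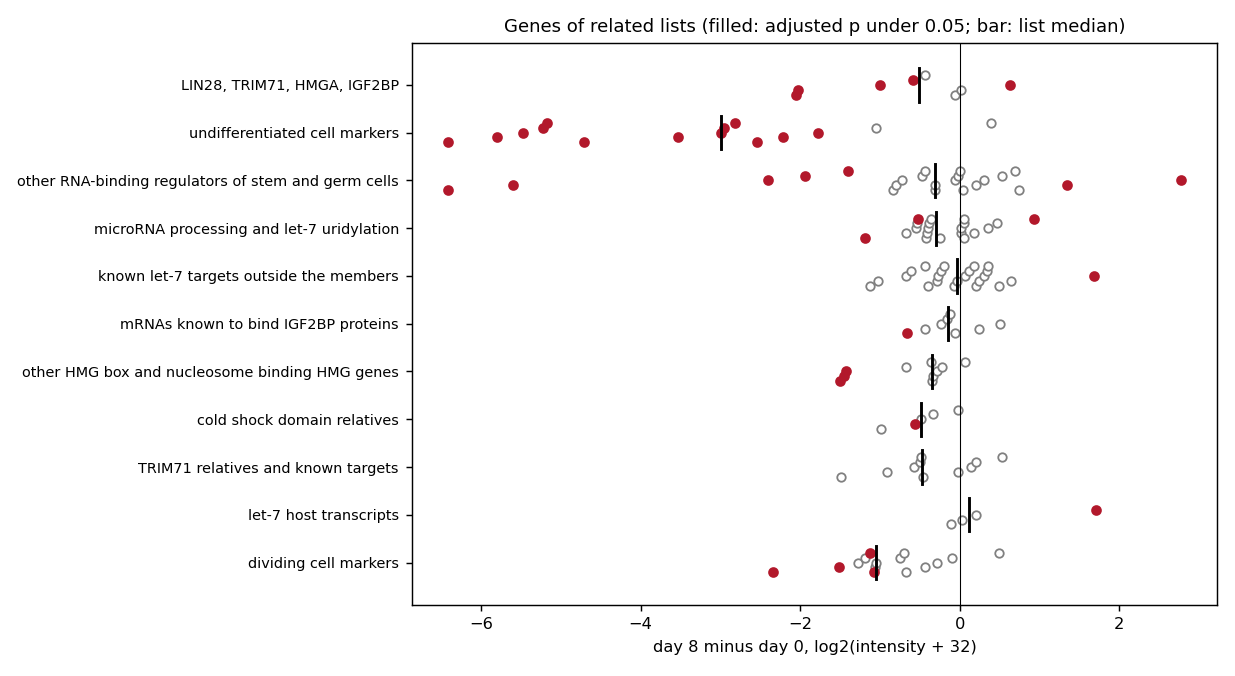
Change from day 0 to day 8, log2(intensity + 32), of every tested gene in the lists named on the left, 1 point per gene, filled where the adjusted p was under 0.05, with a bar at each list's median. The 8 genes have a median of -0.51, near those of cold shock domain relatives at -0.48 and of TRIM71 relatives and targets at -0.47. The median is -2.999 for undifferentiated cell markers, -1.05 for dividing cell markers and -0.03 for known let-7 targets outside the set. Part of the undifferentiated cell markers passed the filter through the day 0 arrays, so the size of their median is not set against the others.

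Beside LIN28A, TRIM71 and IGF2BP3, 13 of 15 markers of undifferentiated cells were called lower at each day, against 9.91%, 13.6% and 14.1% of all genes. The medians of the 15 were -2.81, -2.94 and -2.999. GDF3, a ligand of the TGF-beta family, was the one called higher, at day 6 by 1.16 ± 0.32 (adjusted p = 0.0393). The markers' summed intensity over 15 genes was 82235 and 88179 at day 0 and from 12063 to 17673 on the sorted arrays. On those arrays, 7 to 11 of the 15 still lay above the array median. NANOG, a core pluripotency factor, had group means of 6.52, 6.65 and 6.51 at day 4, day 6 and day 8. These lay below the array medians of 6.92 to 6.97. NANOG thus passed the filter through the day 0 arrays, and the size of its fall is not given. LEFTY1, ZFP42 and USP44 also had sorted group means below the array medians, from 6.06 to 6.49. So did SOX2 at day 4 and day 6 (6.37 and 6.65). The medians of the 15 markers include these genes, so their size is not set against that of the 8 genes. Markers of dividing cells over 15 genes summed to 58343 and 60023 at day 0 and from 29920 to 67640 on the sorted arrays, lowest on replicate 2 of day 6, and all 15 lay above the median on every array. Markers of stroma and smooth muscle over 13 genes summed to 41300 and 41322 at day 0 and from 12438 to 27656 on the sorted arrays, with 9 to 13 above the median there. Endoderm and plasma protein markers over 16 genes summed to 1694 and 1712 at day 0 and from 1207 to 28054 on the sorted arrays, with 5 to 12 above the median there. Red cell markers over 9 genes ran from 644 to 657 at day 0 and from 1219 to 12167 later, and white cell markers over 12 genes from 919 to 972 and from 3720 to 7022. Of these, 5 to 8 red cell and 6 to 10 white cell markers lay above the median on sorted arrays. The part of these cells in the results was not tested.

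Genes whose profiles over the 8 arrays lay closest to a member were found by the root mean square difference of centred profiles, for the 6 members that ranged over at least 1 on the log2 scale. The 3 closest to LIN28A were GINS4, a subunit of the replication helicase (0.11), FAM169A (0.12) and AGMAT (0.14). Those closest to TRIM71 were ANK3, TUBB2B and TRIM36, and to IGF2BP3 CECR2, RAB12 and the antisense RNA KCNQ1OT1. IGF2BP1 lay closest to AKNA (0.07), LRRC69 and ANKRD42. HMGA1 lay closest to MED22 and to VARS1 and SARS2, a pair of aminoacyl-tRNA synthetases, and HMGA2 to CSNK1D, PAX6 and MFN2. The differences ran from 0.07 to 0.16 over all 18 pairs, across arrays that share their group structure.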

How the data were processed

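The values that the authors deposited are linear intensities, 1 for each probe set on each array. MAS5 is the tool in the submitters' processing notes, and the scaling and genome build are not given in the sources used here. Detection calls were not used. Without further scaling, values were taken as log2(intensity + 32), which understates changes of dim genes. The platform annotation tied 41091 of 54675 probe sets to a single symbol. A gene took its brightest probe set, with _x_at probe sets as a last resort, and entered the test if that exceeded the median of the array on 2 or more of the 8, which left 13647 of 19775 genes. limma 3.58.1 (R 4.3.3) fitted group means with trended eBayes, two-sided, on 4 residual and 2.84 prior degrees of freedom. All probe sets with 1 symbol were fitted the same way.

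The members and lists were chosen with earlier results of these data known, and the paralog differences and promoter motifs after the values or sequences were seen. Named genes were the 8 members in every comparison, up to 4 genes per other list with the smallest adjusted p at day 4 and between day 4 and day 8, and the 3 most similar genes of each member that ranged over at least 1. TUT4, TUT7, DIS3L2, DICER1, MYC, IGDCC3, PPP1R9B, TRIM32, HMGN5 and YBX1 were named outside that rule, with their values seen. Groups and replicate numbers follow the titles, also for 3 samples whose source name gives another day than title, description and stage. In a simulation of day 8 against day 0 with 200 changed genes among 13647, limma called 39.4%, 74.2% and 95.2% of those moved by 1, 2 and 3 on the log2 scale and made 1 false call. The same simulation made 4 false calls for day 4 and 18 for day 6 against day 0, and 14 for day 8 against day 4. Its noise was independent between arrays, whereas sorted replicates deviated together with correlations up to 0.60. It also changed far fewer genes than the 3345 called at day 8, so its shares do not carry over to these results. Alternatives were other offsets, filters, scalings and probe set rules, eBayes without trend, fewer arrays, a replicate block, a minimum change and each array left out. Figures were drawn with matplotlib 3.10.9 in Python 3.11.15.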

Additional observations from a re-analysis of the deposited data

How the results depend on the processing

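Over 1026 recomputed values of 48 gene changes, 962 kept direction and side of the threshold, 37 lost a call, 9 gained one and 18 changed sign. Of the genes called at day 4, day 6 and day 8 against day 0 (3, 5 and 5 of 8), leaving out 1 array gave 1 to 4, 1 to 5 and 2 to 5. The counts fell lowest without a day 0 array, at 1 for day 4 without replicate 1, 1 for day 6 and 2 for day 8 without either, and day 8 gave 3 without either of its own arrays. Without 2 arrays, replicate 1 of day 4 and of day 6, 5 were called at day 4. A required change of at least 1 left 3 at day 6 and 2 at day 8, and the mean of all probe sets left 3 at day 6. Between sorted groups 0 were called under all alternatives. Over all genes, 2516, 3187 and 3345 calls at the 3 days became 991 to 3142, 1205 to 3591 and 1217 to 4360 with 1 array left out. A required change of at least 1 left 2006 at day 6 and 2127 at day 8, the arrays of the 2 groups alone gave 6784 at day 8, and leaving out those 2 arrays gave 4764, 6096 and 6781.

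All sign changes were of values called in neither setting. With 1 array left out, IGF2BP2 ran from -0.21 to 0.037 at day 4 against day 0 and from -0.010 to 0.037 at day 8, and HMGA2 from -0.33 to 0.22 at day 8. Between day 4 and day 6, LIN28B ran from -0.20 to 0.0043, HMGA1 from -0.12 to 0.51 and TRIM71 from -0.31 to 0.49. Between day 6 and day 8, LIN28A ran from -0.28 to 0.029, LIN28B from -0.195 to 0.0093, HMGA1 from -0.10 to 0.44 and TRIM71 from -0.78 to 0.010, and between day 4 and day 8 IGF2BP2 from -0.024 to 0.22. Without those 2 arrays, TRIM71 read -0.39 between day 4 and day 6 and 0.010 between day 6 and day 8. With the mean of probe sets, IGF2BP2 read 0.076 at day 4 against day 0 and -0.040 at day 8 against day 4. With quantile normalization, HMGA2 read 0.10 at day 8 against day 0 and LIN28B 0.000165 between day 6 and day 8, and with median centring IGF2BP2 read -0.011 at day 8 against day 0. The cause was not tested.

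Same-numbered replicates deviated together between sorted groups, with correlations of 0.60, 0.19 and 0.41, but not with day 0 (from -0.02 to 0.02). The labels name no shared litter, batch or day behind a number, and the numbers were not taken as a pairing over the 4 groups. With the replicate block, 0 of the 8 genes and 0 of all genes were called between sorted groups, and 3, 6 and 5 of the 8 at the 3 days against day 0. LIN28B at day 6 was the gene gained (-0.49, adjusted p = 0.0367), and all genes called numbered 3039, 3874 and 4250. The mean of all HMGA2 probe sets fell below the filter and gave no value. The arrays' number, 2 per group, and the signal of dim probe sets limit these values, and with 1 array left out the lone array is assumed to vary like the others.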

Other observations

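Among other RNA-binding regulators of stem and germ cells, single genes were called in both directions. Of 23 tested, 2 were called higher and 6 lower at day 4, where 8.52% and 9.91% of all genes were. At day 6 it was 2 and 4 (9.73% and 13.6% of all genes), and at day 8 2 and 5 (10.4% and 14.1%). The median changes were -0.30, -0.14 and -0.31. L1TD1, an RNA-binding protein of embryonic stem cells that is also among the markers of undifferentiated cells, read 13.15 and 13.06 at day 0 and from 6.37 to 7.28 on the sorted arrays. Its sorted group means of 7.01, 6.91 and 6.69 lay near or below the array medians, so the size of its change is not given. ESRP1, a splicing factor of epithelial cells, was called lower at day 4. Its group means were 6.77, 6.36 and 6.38 at day 4, day 6 and day 8, below the array medians of 6.92 to 6.97. It thus passed the filter through the day 0 arrays, so the size of its change is not given. MBNL2, a splicing factor, read 7.85 and 8.17 at day 0 and from 10.41 to 11.11 later, and RBM24 was higher at day 4 by 1.95 ± 0.23 (adjusted p = 0.00161).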
